A study of Homo sapiens with 5 samples.

Results

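RNA polymerase II (RNAPII) was measured at 109 genes of human chromosome 19 that carry a ZNF name, out of 9767 genes with values in every library read around transcription start sites (TSSs). The genes were taken from the authors' TSS list as those on chromosome 19 whose symbol is ZNF, a number and at most 1 letter, with values in all 3 libraries. Each gene was represented by the listed TSS with the highest mean promoter density. Of the 109 genes, 23 lie between positions 54906150 and 58599277 (hg38), a segment singled out because the chromatin flanking its TSSs had a lower density in both knockout libraries, and they are described apart from the other 86.

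The libraries were made by immunoprecipitating RPB1, the largest subunit of RNAPII, from RPE1, a human line derived from retinal pigment epithelium and immortalised with hTERT. All cells carried iCas9 and knockouts of p53 and puro, and no treatment beyond growth to confluency was given. The groups were WT with 3 samples, CFAP20-KO (single knockout, 1 sample), which lacks the cilia and flagella associated protein CFAP20, and CFAP20/CCNC-dKO (double knockout, 1 sample), which also lacks cyclin C of the Mediator kinase module. The labels conflict on the RPB1 antibody. The sample fields named a different supplier for WT than for both knockouts, but the extraction protocol named 1 RPB1 antibody for every library, under the catalogue number that the spike-in antibody also carries. If the antibody did differ, it cannot be told apart from the genotype in a comparison with WT.

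Around TSSs each genotype had 1 library, so no difference below has a replicate check and no test was possible. How many clones stand behind each knockout was not stated. Counted in equivalent fragments (coverage divided by the coverage of 1 fragment), the single-knockout library was 13.5% and the double-knockout library 20.1% as deep as WT. The median member promoter had 110 such fragments in WT, 11.8 in the single knockout and 13.5 in the double knockout, so single genes are imprecise in the knockouts. Of 6 genes expected in such a line 2 had a listed TSS, CYR61 and TGFBI, with WT promoter densities of 13.6 and 1.18. Among genes that the line should lack, WT densities were 0.263 for CD3E, 0.354 for ALB and 1.05 for SNAP25, a neuronal gene. CFAP20 and CCNC were not among the TSSs analysed, so the knockouts were not checked at their targets.

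Most ZNF genes encode DNA-binding proteins with arrays of C2H2 zinc fingers, and many also carry a KRAB domain, which recruits the co-repressor TRIM28 and, through it, enzymes that deposit repressive histone methylation. Many of these proteins bind transposable elements and silence them. The family grew by tandem duplication, and chromosome 19 holds its largest clusters in the human genome, so neighbouring members often share sequence.

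The promoters of the members shared sequence within some clusters, and the following promoters are shown because the results below turn on these genes. They are the 150 bases before the RefSeq start (GRCh38.p14 assembly), written 5′ to 3′ on the gene's strand. Capitals mark 3 words on either strand, the GC box GGGCGG, the CCAAT box in the form CCAATCA, and the ETS-type word CCGGAAG. The first 5 genes belong to the clusters in which every promoter examined held CCAATCA.
ZNF254, chr19:24087037-24087186, plus strand: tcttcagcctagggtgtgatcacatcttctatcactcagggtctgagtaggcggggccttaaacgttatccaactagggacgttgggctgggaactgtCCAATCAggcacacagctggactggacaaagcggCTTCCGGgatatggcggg
ZNF91, chr19:23395472-23395621, minus strand: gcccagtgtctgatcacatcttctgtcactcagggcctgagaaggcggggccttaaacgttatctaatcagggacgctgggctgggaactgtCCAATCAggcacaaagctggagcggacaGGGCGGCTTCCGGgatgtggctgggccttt
ZNF431, chr19:21141890-21142039, plus strand: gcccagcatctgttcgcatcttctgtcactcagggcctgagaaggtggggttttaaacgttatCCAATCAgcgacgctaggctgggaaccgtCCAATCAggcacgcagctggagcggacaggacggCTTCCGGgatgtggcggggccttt
ZNF429, chr19:21505452-21505601, plus strand: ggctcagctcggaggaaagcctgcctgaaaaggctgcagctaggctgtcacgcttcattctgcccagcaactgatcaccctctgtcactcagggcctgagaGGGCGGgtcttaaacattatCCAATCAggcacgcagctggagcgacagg
ZNF442, chr19:12365684-12365833, minus strand: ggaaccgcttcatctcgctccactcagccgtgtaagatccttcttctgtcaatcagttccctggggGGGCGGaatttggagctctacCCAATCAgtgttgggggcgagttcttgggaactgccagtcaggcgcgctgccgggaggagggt
The next 4 promoters lie in the segment of lower flank density.
ZNF543, chr19:57320322-57320471, plus strand: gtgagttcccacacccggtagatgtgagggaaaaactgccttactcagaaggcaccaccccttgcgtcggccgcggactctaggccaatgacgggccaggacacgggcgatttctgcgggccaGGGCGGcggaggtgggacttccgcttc
ZNF264, chr19:57191350-57191499, plus strand: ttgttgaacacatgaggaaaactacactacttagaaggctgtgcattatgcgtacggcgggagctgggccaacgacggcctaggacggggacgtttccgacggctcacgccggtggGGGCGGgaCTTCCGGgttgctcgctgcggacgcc
ZNF784, chr19:55624567-55624716, minus strand: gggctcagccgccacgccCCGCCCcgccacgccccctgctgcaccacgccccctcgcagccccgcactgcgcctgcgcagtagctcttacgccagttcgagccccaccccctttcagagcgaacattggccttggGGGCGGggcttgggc
ZNF586, chr19:57769526-57769675, plus strand: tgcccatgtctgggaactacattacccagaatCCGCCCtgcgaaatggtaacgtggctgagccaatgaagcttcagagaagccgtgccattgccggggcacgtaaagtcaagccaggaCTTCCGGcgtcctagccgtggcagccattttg
The next 2 come from the cluster with raised flanks, and the last 2 are neighbours on either side of the place where a second run of lowered flanks ended.
ZNF527, chr19:37370949-37371098, plus strand: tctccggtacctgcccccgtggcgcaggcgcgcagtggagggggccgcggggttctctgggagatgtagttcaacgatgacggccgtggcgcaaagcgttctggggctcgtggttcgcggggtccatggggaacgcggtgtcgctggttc
ZNF382, chr19:36605163-36605312, plus strand: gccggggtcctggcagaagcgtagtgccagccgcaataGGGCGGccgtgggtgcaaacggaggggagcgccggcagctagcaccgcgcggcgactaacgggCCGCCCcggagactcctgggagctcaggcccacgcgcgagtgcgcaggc
ZNF415, chr19:53132911-53133060, minus strand: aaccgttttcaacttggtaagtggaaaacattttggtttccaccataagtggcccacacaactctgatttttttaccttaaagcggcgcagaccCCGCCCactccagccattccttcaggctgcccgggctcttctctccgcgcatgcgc
ZNF347, chr19:53159054-53159203, minus strand: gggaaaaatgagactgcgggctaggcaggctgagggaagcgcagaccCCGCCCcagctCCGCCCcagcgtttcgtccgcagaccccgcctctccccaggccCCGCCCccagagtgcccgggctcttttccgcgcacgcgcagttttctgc

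A RefSeq promoter of 300 bases, 250 before and 50 after the start, was found for 93 members, and for 85 it began within 200 bp of the listed TSS. CCAATCA was present in 28 of these 85 promoters (32.9%), against 6.96% of all 34943 RefSeq promoters, 9.49% of 4059 measured genes and 17.3% of 75 ZNF genes on other chromosomes. The word was picked after the members' promoters had been searched for shared words. It was concentrated in the clusters ZNF627 to ZNF442 and ZNF101 to ZNF254, where all 24 promoters held it, whereas 4 of the 61 promoters of the other clusters did (ZNF77, ZNF234, ZNF416 and ZNF776, of which ZNF77 had 6 copies). In the 24 promoters the nearest copy lay 20 to 116 bases from the RefSeq start, with a median of 54. CCGGAAG was present in 47.1% of member promoters, against 10.2% of all RefSeq promoters, 16.8% of measured genes above the density filter described below and 37.3% of ZNF genes on other chromosomes. GGGCGG was present in 68.2% of member promoters, against 44.9% of all RefSeq promoters, 65.9% of measured genes above the filter and 57.3% of ZNF genes on other chromosomes, so the members were close to other occupied promoters in this word. The TATA word TATAAA was found in 4.71% of member promoters and in 11.6% of all RefSeq promoters, and the YY1-type word ATGGCGG in 9.41% and 5.55%. CCAATCA includes the pentamer CCAAT, and none of the other words contains another.

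**Figure D1:**
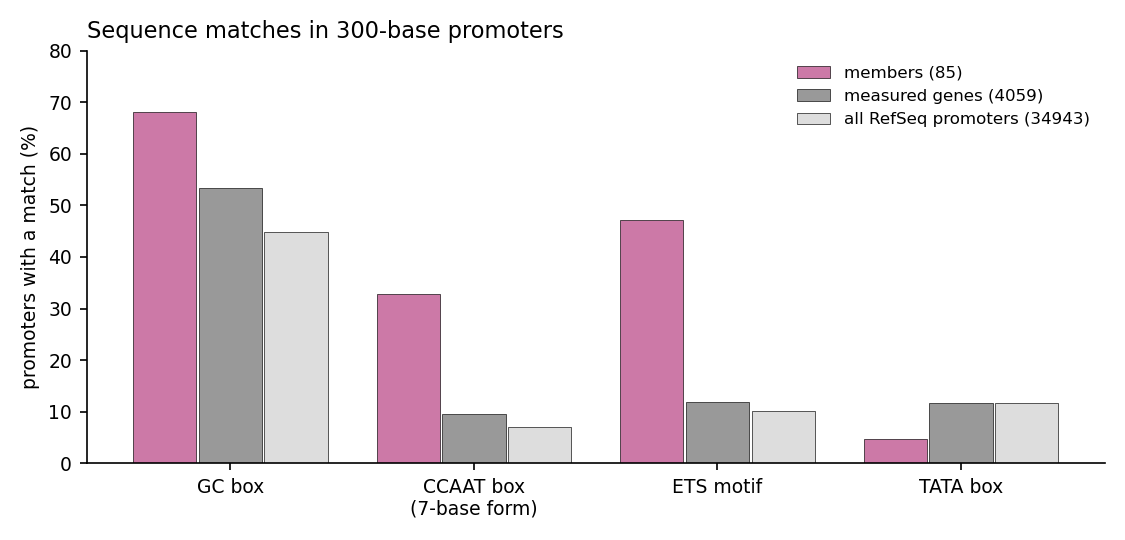
Share of 300-base RefSeq promoters with at least 1 match on either strand to the GC box, the 7-base CCAAT box, the ETS-type word and the TATA word, for 85 member promoters, 4059 promoters of measured genes and all 34943 RefSeq promoters. Member promoters stand above both reference sets for the first 3 words (68.2%, 32.9% and 47.1%) and below them for the TATA word (4.71%).

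Neighbours in some clusters also shared longer stretches. The longest identical run between the 300-base promoters of 2 members had a median of 20 bases over the 105 pairs within the cluster ZNF101 to ZNF254, and of 8 bases over the 3090 pairs of members from different clusters. A run of 20 bases or more was shared by 82 of 480 pairs within a cluster and by 3 of the 3090 pairs across clusters. Of the 82 pairs, 56 lay in the cluster ZNF101 to ZNF254 and 18 in the cluster ZNF175 to ZNF331. In the segment the median run was 9 bases, and 1 of 153 pairs shared 20 or more. In the cluster ZNF146 to ZNF573 these were 8 bases and 1 of 21 pairs. The longest run, 64 bases, joined ZNF83 and ZNF765. ZNF91, which represses SVA retrotransposons, shared 43 bases with ZNF675. Of the 42-base words in the promoter window a median of 100% occurred once in the genome, and 8 of 109 members (7.34%) were under 80% unique, against 8.28% of all genes. The least unique were ZNF28 (51.4%), ZNF468 (51.6%) and ZNF773 (58.9%), and their values are uncertain because reads may be shared with copies. The gene body window was less unique, with a median of 85.1% and 28 members under 80%.

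In WT, the members carried more RNAPII at their promoters than most listed genes. Promoter density, the mean of the authors' spike-in normalized coverage from -200 to 500 bp, had a median of 1.01 over all 109 members and 0.408 over all 9767 genes, and it ranged from 0.147 (ZNF626) to 3.62 (ZNF254). The 111 ZNF genes on other chromosomes had a median of 1.22. Among members, those of the segment had the higher median, 1.55, against 0.839 for the other 86. The highest WT densities were 3.62 for ZNF254, 3.32 for ZNF837, 3.04 for ZNF274, 2.80 for ZNF784, 2.62 for ZNF414, 2.54 for ZNF627 and 2.51 for ZNF586. Of the 109 members, 84 exceeded the density filter of 0.411, the median over all TSSs of the mean of the 3 libraries, and 4 of these (ZNF439, ZNF442, ZNF429 and ZNF404) were under that level in WT and passed through the knockouts. The 25 below the filter had WT densities from 0.147 to 0.711 (ZNF615).

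The authors' deposited table listed a gene body value of WT BrU-seq, which labels newly made RNA, for 96 members, on a scale that no source used here gives. In the authors' deposited table the median was 5.41 for the 23 members of the segment, 1.08 for 73 others and 0.591 for all 6299 genes with a value. For 96 ZNF genes on other chromosomes the authors' deposited table gave a median of 1.77. For 207 other chromosome 19 genes outside the segment it gave 1.13, so the 73 were close to these neighbours. The highest member value in the authors' deposited table was 19.6 for ZNF543, followed by 11.96 for ZNF414 and 11.3 for ZNF416. ZNF254, with the highest WT promoter density, had 2.35 in the authors' deposited table, above the member median of 1.29 but not among the highest values. ZNF414 was among the highest in both measures. How alike promoter density and nascent transcription rank the members was not tested.

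RNAPII at the members was mostly a narrow peak at the start. Averaged over members, WT density peaked 50 bp after the TSS at 2.52 in the segment and at 1.33 outside it. Gene body density, from 2000 to 5000 bp, had a WT median of 0.374 over the members and 0.361 over all genes. The promoter exceeded the flanks, taken from 2000 to 4500 bp on both sides, by a median of 2.45 times in members and 1.17 times in all genes. Among those above the density filter the medians were closer, 2.91 in members and 2.52 in all genes. ZNF genes on other chromosomes had 2.98 without the filter, so the peak was not particular to the members. At 13 members, all outside the segment, the WT promoter was at or below its flank, as at 3595 of all genes. The log2 ratio of promoter to body was largest in WT for ZNF837 (2.75), ZNF527 (2.64) and ZNF180 (2.50), and lowest among members above the filter for ZNF404 (-0.42), ZNF442 (-0.30) and ZNF429 (-0.28). The highest WT body densities belonged to ZNF784 (1.28), ZNF579 (0.834) and ZNF552 (0.716), and the first 2 of these genes are shorter than the body window. The lowest among members above the filter were 0.265 (ZNF563), 0.280 (ZNF256) and 0.282 (ZNF28).

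**Figure D2:**
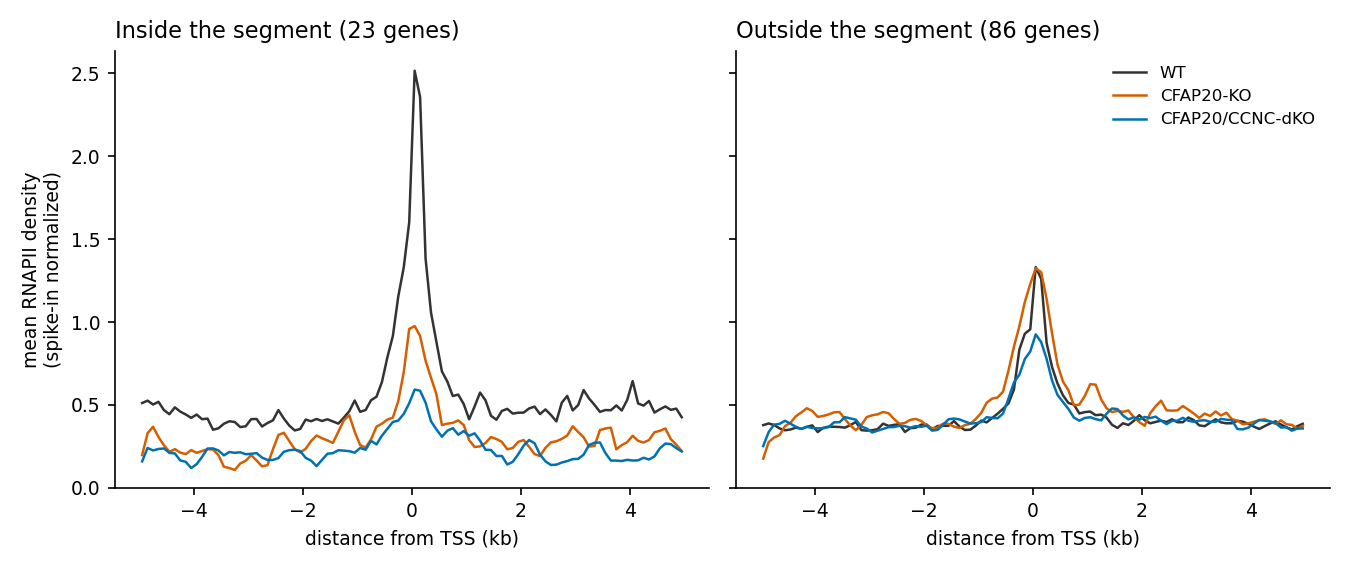
Mean RNAPII density in each library against distance from the TSS for the 23 members in the segment (left) and the 86 outside it (right), with 1 library per line. In the segment the WT peak of 2.52 stands above 0.976 in the single knockout and 0.593 in the double knockout, and the flanks are lower as well. Outside it the peaks are 1.33, 1.32 and 0.925. Coverage fragments were 145 bp long in WT and 275 and 277 bp in the knockouts, so peak height and width are not compared like for like with WT.

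Of the members, 8 lay within 95 kb of a replication origin for which all 3 WT samples had values, which gave the only replicate spread. The promoter to flank ratio of ZNF543 was 4.66, 4.24 and 4.17 in WT replicates 1 to 3, a mean of 4.36 ± 0.269 (SD, n = 3). ZNF562 had 4.14, 1.53 and 5.45 (3.71 ± 1.99, SD, n = 3), and ZNF121 had 3.66, 1.37 and 5.14 (3.39 ± 1.90, SD, n = 3). ZNF256 had 2.85, 1.76 and 4.43 (3.01 ± 1.34, SD, n = 3). The replicates differed widely for these 3 genes and little for ZNF543. ZNF77, ZNF805 and ZNF431 had means of 2.97 ± 0.810, 2.56 ± 0.931 and 2.52 ± 0.547 (SD, n = 3). ZNF418 was the only one of the 8 below 1, with 0.806 ± 0.388 (SD, n = 3). The median over the 8 genes was 2.84, 1.91 and 3.84 in the 3 replicates (2.86 ± 0.965, SD, n = 3), above the medians of 1.65, 1.61 and 2.22 over 1867 other TSSs in origin windows in each replicate. Nothing states that the replicates came from separate cultures. These ratios come from the 200-bp bins of the origin windows and do not match those of the 10-bp TSS windows for every gene, since ZNF77 had 1.49 in the WT library of the TSS windows and 2.04, 3.36 and 3.52 in the 3 origin-window replicates.

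**Figure D3:**
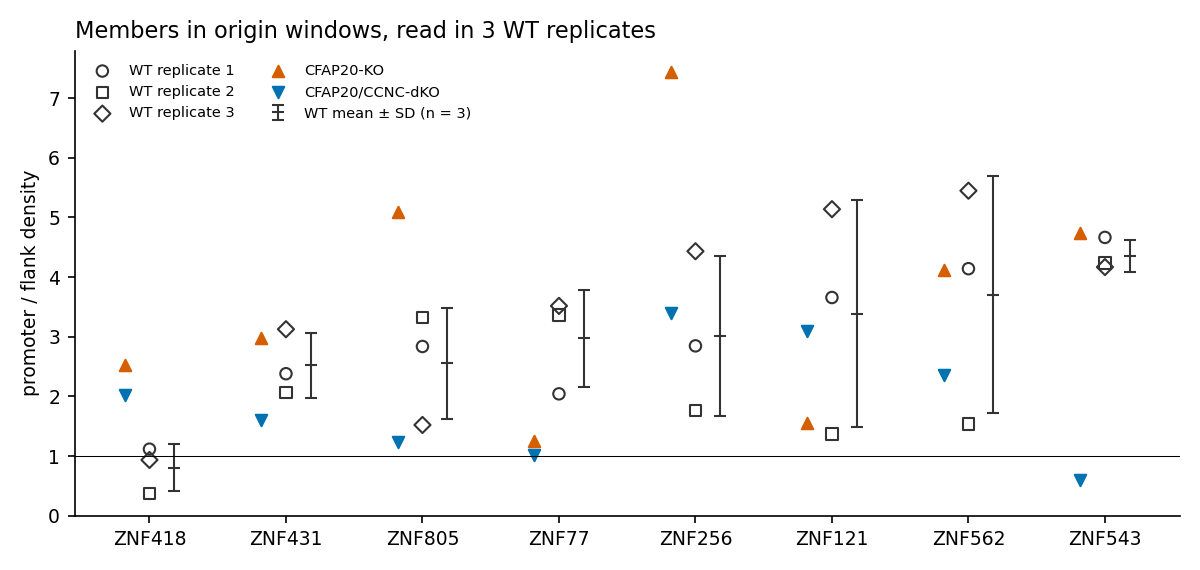
Promoter to flank density of the 8 members in origin windows in WT replicates 1 to 3 (open symbols, with mean ± SD, n = 3). Filled triangles are the single values of the single knockout and the double knockout from the TSS windows. The TSS windows have narrower bins, and the normalization of the origin windows is not given. ZNF543 has the tightest WT values, 4.17 to 4.66, with 4.73 in the single knockout and 0.604 in the double knockout.

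In the segment, promoter density was lower in both knockout libraries, together with the flanks. The median promoter density of the 23 members was 1.55 in WT, 0.665 in the single knockout and 0.503 in the double knockout. As log2 ratios with a pseudocount of 0.0424 the medians were -1.04 for the single knockout and -1.63 for the double knockout against WT, beside -0.03 and -0.22 over all genes. With ZNF470, which had under 0.5 equivalent fragments in the single knockout, set at the limit of its counting interval, the first median was -0.92. The single knockout was lower than WT at 21 of the 23 and the double knockout at all 23, and for 17 members the order was WT, the single knockout, the double knockout from high to low. Above the filter, 18 of 21 were at least 1.5-fold lower and 0 higher in the single knockout relative to the median of all genes above the filter, where 16.6% were lower and 15.8% higher. In the double knockout 20 of 21 were lower and 0 higher, where 16.7% and 18.9% of genes were. Nothing is read from these counts, because the segment was chosen on densities of the same libraries beside the same TSSs.

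The flanks of the segment, relative to each library's median, stood at a median of 0.514 times WT in the single knockout and 0.438 times in the double knockout, and they were below 1 at all 23 members in both. Each promoter divided by its own flank had a median log2 ratio of -0.22 in the single knockout and -0.46 in the double knockout, beside -0.07 and -0.21 over all genes. The 35 listed genes of the segment that are not members had median flank ratios of 0.470 and 0.512, and median promoter log2 ratios of -0.72 and -0.94. No library of unprecipitated chromatin was used here, so less chromatin recovered from the segment and less RNAPII on it cannot be told apart. The members nearest its borders were ZNF331 outside, with flank ratios of 1.56 and 0.939, and ZNF579 inside, with 0.675 and 0.473.

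ZNF274, a KRAB zinc finger protein known to bring the histone methyltransferase SETDB1 to the 3′ ends of other ZNF genes, had promoter densities of 3.04 in WT, 0.565 in the single knockout and 1.29 in the double knockout. Its ratio to WT was 0.186 (95% counting interval 0.0793 to 0.371) in the single knockout and 0.425 (0.282 to 0.620) in the double knockout, and unlike most of the segment it was higher in the double knockout than in the single. These Clopper-Pearson intervals and all those below come from equivalent fragments and cover counting error only. ZNF583 showed the same order, with 1.65, 0.317 and 0.505.

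ZNF543 had 1.55 in WT, 0.926 in the single knockout and 0.104 in the double knockout, the lowest value of the segment in that library. Its ratio to WT was 0.596 (0.311 to 1.05) in the single knockout and 0.0667 (0.0103 to 0.223) in the double knockout, where it rested on 2.38 equivalent fragments. In the TSS windows its promoter was 4.38 times its flank in WT, 4.73 times in the single knockout and 0.604 times in the double knockout. The WT replicate ratios above come from wider bins, with a normalization that is not given, so no comparison of the knockouts with their spread was made. ZNF264, in the same stretch of the segment, had a like order, with 1.64, 1.36 and 0.252. Its ratio between the double knockout and the single knockout was 0.184 (0.0590 to 0.485), beside 0.112 (0.0157 to 0.453) for ZNF543.

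Among the other heavily occupied promoters of the segment, most were highest in WT and lowest in the double knockout. ZNF837 had 3.32, 1.83 and 1.02 in WT, the single knockout and the double knockout, ZNF784 had 2.80, 1.46 and 0.655, and ZNF586 had 2.51, 1.58 and 0.561. The double-knockout ratio to WT was 0.307 (0.193 to 0.467), 0.234 (0.130 to 0.392) and 0.224 (0.117 to 0.390) for these 3 genes. ZNF671 had 1.94, 0.918 and 0.503, ZNF329 had 1.97, 0.867 and 0.492, and ZNF773 had 1.87, 0.818 and 0.440. ZNF211 had 1.80, 0.647 and 0.659, so its 2 knockout values were close to each other. ZNF71 had 1.40, 0.988 and 0.542, ZNF471 had 1.38, 0.789 and 0.586, ZNF324B had 1.39, 0.642 and 0.536, and ZNF579 had 1.28, 0.665 and 0.615. WT was highest for each of these 11 genes. At ZNF530 and ZNF256 the single knockout was above WT, with WT and single-knockout densities of 0.495 and 0.593 and of 0.761 and 0.908. Their ratios, 1.199 (0.503 to 2.50) and 1.19 (0.607 to 2.16), had intervals that included 1.

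**Figure D4:**
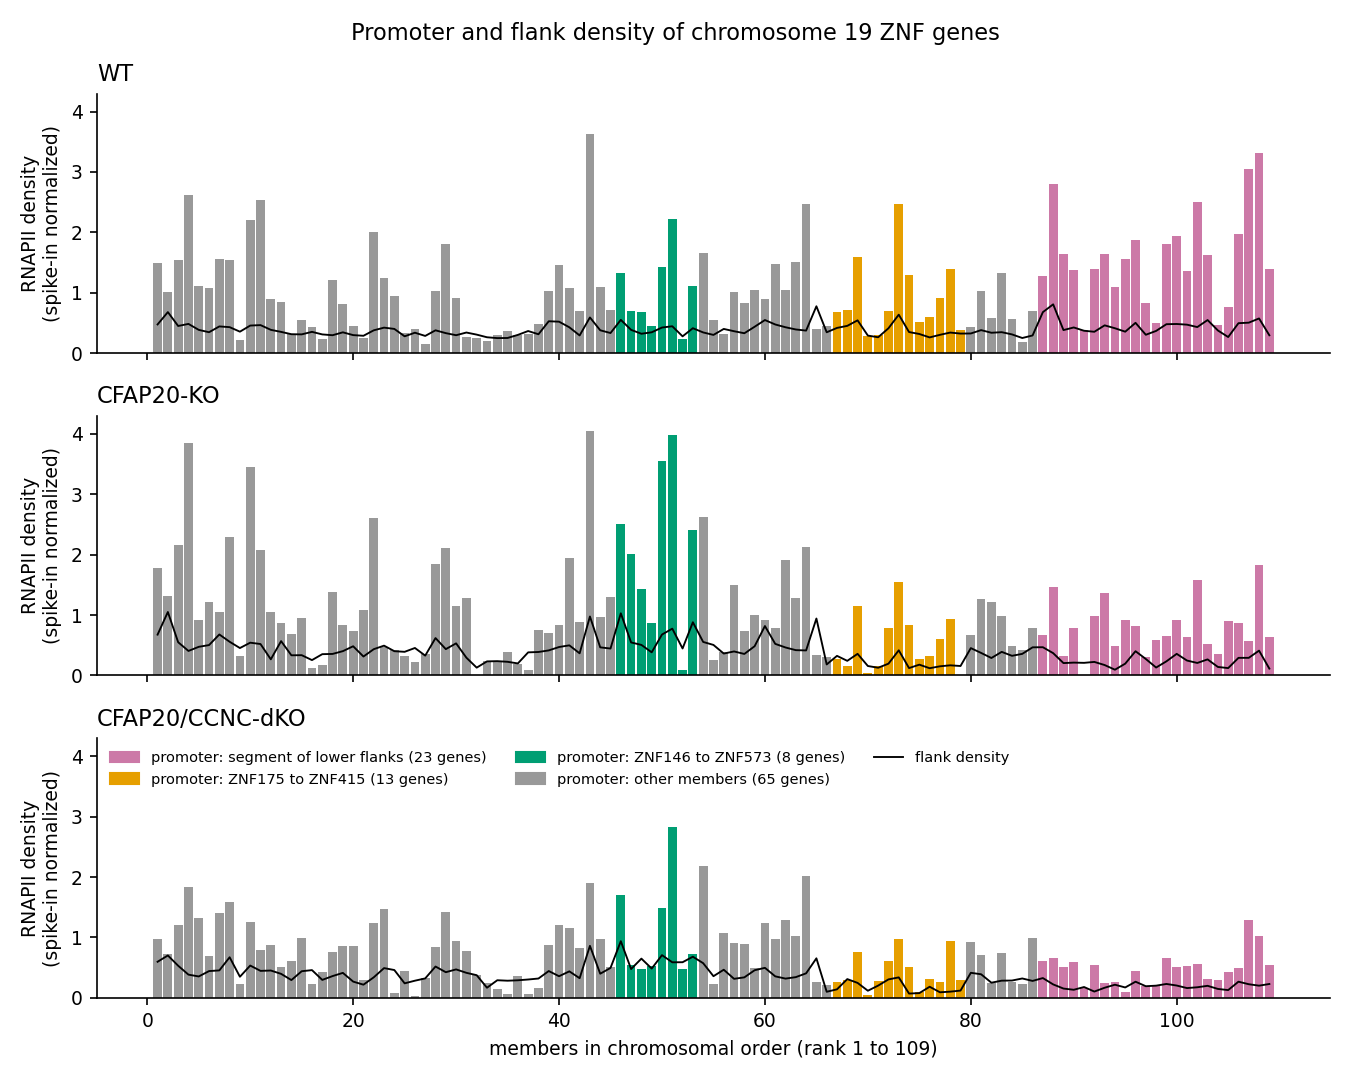
Promoter density (bars) and flank density (line) of all 109 members in chromosomal order in WT, the single knockout and the double knockout, coloured by position. Bars of the segment (23 genes at the right) reach 3.32 in WT, 1.83 in the single knockout and 1.29 in the double knockout, whereas the 8 genes ZNF146 to ZNF573 reach 2.23, 3.98 and 2.82.

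Outside the segment, the medians of the 86 members were close to those of ZNF genes on other chromosomes, and single members lay on both sides of WT. The median promoter density was 0.839 in WT, 0.881 in the single knockout and 0.740 in the double knockout. The median log2 ratio to WT was 0.13 in the single knockout, beside -0.03 over all genes and 0.12 over the 111 ZNF genes of other chromosomes. With ZNF43 and ZNF415, which were at 0 in the single knockout, set at the limits of their intervals, it was 0.15. In the double knockout the median was -0.33, beside -0.22 over all genes and -0.42 over the other ZNF genes. The 323 other chromosome 19 genes outside the segment had medians of 0.13 in the single knockout and -0.10 in the double knockout. Of the 63 above the filter, 16 were at least 1.5-fold higher and 12 lower in the single knockout, beside 15.8% and 16.6% of all genes above it. In the double knockout 10 were higher and 12 lower, beside 18.9% and 16.7%. In either direction these were 44.4% of the 63 in the single knockout, against 32.4% of all genes, and 34.9% in the double knockout, against 35.6%, so in the double knockout the share was that of all genes. Without centring on the median, 21 were higher and 7 lower in the single knockout, beside 22.3% and 12.4% of all genes, and 6 were higher and 18 lower in the double knockout, beside 11.4% and 28.1%. The flanks had medians of 1.10 and 1.01 times WT, beside 1.15 and 1.07 at the 323 other chromosome 19 genes.

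Among these 86, members of 2 stretches of the chromosome were set apart by their flanks. The run below was the longest of neighbouring members with flanks under 0.8 times WT in both knockouts. The cluster was the one of several members with the highest median flank ratio in the single knockout. Lone members elsewhere had like flank ratios, 1.59 and 1.64 at ZNF546 and 0.518 and 0.285 at ZNF541. In the cluster ZNF146 to ZNF573, whose flanks stood at medians of 1.57 and 1.63 times WT, the median promoter log2 ratio of the 8 members was 0.96 in the single knockout and 0.15 in the double knockout. In a run of 13 members from ZNF175 to ZNF415 the flanks were at 0.490 and 0.397, and the median promoter log2 ratios were -0.77 and -1.18. Both groups were marked out after their flank values had been seen, and they are described without a test. The other listed genes at the same positions were too few to show whether these promoter values are particular to the members. The 4 in the run had median promoter log2 ratios of 0.76 and -0.01 with flanks at 0.807 and 0.826, and none was above the filter. All 4 had WT promoters at or below their own flanks, with medians of 4.29 and 4.69 equivalent fragments in the knockouts. The 2 in the cluster had 0.11 and -0.95 with flanks at 1.40 and 1.60. The other 65 members had medians of 0.17 and -0.27. Their flanks stood at medians of 1.13 and 1.01, with ranges of 0.415 to 1.76 and 0.285 to 1.64. They held 15 of the 28 outside members past 1.5-fold in the single knockout and 16 of the 22 in the double knockout. These were 30.6% and 32.7% of their 49 above the filter, against 32.4% and 35.6% of all genes. In the single knockout the rest of the 28 were 6 of 7 above the filter in the run and 7 of 7 in the cluster.

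The run of lowered flanks ended between neighbours. ZNF415 had flank ratios of 0.474 and 0.363, and ZNF347, the next member along the chromosome, had 1.36 and 1.25. Their promoters differed in the same way. ZNF415 had 0.386 in WT, 0 in the single knockout and 0.289 in the double knockout, and the upper limit of its ratio in the single knockout was 0.709. ZNF347 had 0.428, 0.676 and 0.920, but only 71.0% of its promoter words were unique. Within the run, ZNF83 had 2.47, 1.55 and 0.981, and ZNF611 had 1.30, 0.836 and 0.514. ZNF614 had 1.59, 1.15 and 0.751, and ZNF160 had 1.39, 0.929 and 0.943. ZNF808, a KRAB zinc finger gene needed for pancreas development in humans, was the only member of the run not lower in the single knockout, with 0.702, 0.794 and 0.602. ZNF468 had 0.914, 0.606 and 0.267 and ZNF28 had 0.605, 0.317 and 0.311, both in windows with repeated words. ZNF175 had 0.676, 0.276 and 0.269. Divided by the own flank, the median log2 ratio was 0.12 over 12 members in the single knockout and 0.05 over 13 in the double knockout. These were computed without a pseudocount over members above 0, which left out ZNF415 in the single knockout. By the same measure the medians were -0.03 and -0.22 over all genes and -0.16 and -0.40 in the segment.

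The cluster with raised flanks held 7 of the 16 outside members that were at least 1.5-fold higher in the single knockout. ZNF383 had 1.43 in WT, 3.55 in the single knockout and 1.49 in the double knockout, with a single-knockout ratio of 2.48 (1.77 to 3.43). ZNF382 had 0.7003, 2.02 and 0.550, with a ratio of 2.88 (1.80 to 4.48). ZNF527 had 2.23, 3.98 and 2.82, with a ratio of 1.78 (1.31 to 2.39). For these 3 genes the single knockout was highest. ZNF146, a zinc finger protein without a KRAB domain, had 1.32, 2.50 and 1.70. ZNF573 had 1.112, 2.40 and 0.734, ZNF585A had 0.684, 1.44 and 0.478, and ZNF585B had 0.444, 0.869 and 0.533. All 7 members above the filter were highest in the single knockout. The eighth, ZNF793, was below the filter, with 0.241, 0.0851 and 0.479. For 5 of the 8 an opposite-strand start of another gene lay within 1 kb (ZNF146, ZNF382, ZNF383, ZNF793 and ZNF573), and ChIP-seq does not separate strands, so RNAPII of the gene and of its partner cannot be told apart there. Over all members this was so for 16 of 109. At ZNF383 the partner is ZNF585B, whose listed TSS lies elsewhere.

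**Figure D5:**
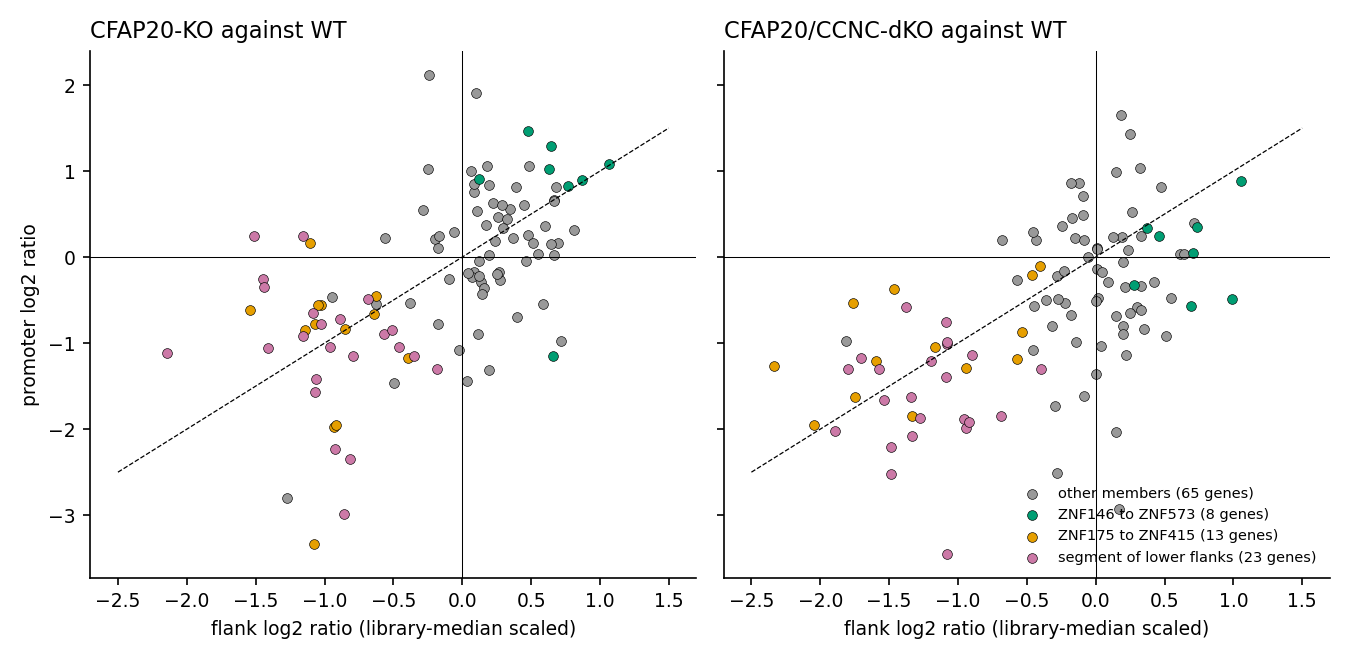
Promoter log2 ratio against flank log2 ratio of the 109 members in the single knockout (left) and the double knockout (right) against WT, with the diagonal dashed. The segment and the run ZNF175 to ZNF415 lie to the left of 0, the cluster ZNF146 to ZNF573 to the right, and the correlation over all 109 members is 0.564 and 0.568.

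Across all 109 members the promoter log2 ratio rose with the flank log2 ratio, with Pearson's r of 0.564 (Spearman's rho 0.577) in the single knockout and 0.568 (0.583) in the double knockout. The points share the library, its scaling and, for neighbours, sequence, so this is a description. Over the 65 members outside the segment, the run and the raised cluster, r was 0.337 and 0.145. Over the 23 in the segment it was -0.27 and 0.04.

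Away from these 3 regions, single genes stood out in 1 library or the other. ZNF429 had 0.262 in WT, 1.28 in the single knockout and 0.780 in the double knockout, with ratios of 4.89 (2.55 to 9.13) and 2.98 (1.55 to 5.57), the highest single-knockout ratio of members above the filter. ZNF442 had 0.258, 1.08 and 0.302, with a single-knockout ratio of 4.20 (2.10 to 8.11). Both were under the filter in WT and passed it through the knockouts, so a difference was built in. ZNF404 was raised in the other library, with 0.314, 0.382 and 1.08 and a double-knockout ratio of 3.44 (1.96 to 5.93), and it too passed only through a knockout. ZNF563 had 0.451, 0.738 and 0.855, with a double-knockout ratio of 1.89 (1.06 to 3.26).

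Lower values were seen at ZNF14, with 0.951 in WT, 0.428 in the single knockout and 0.0880 in the double knockout. Its double-knockout ratio was 0.0926 (0.0112 to 0.341) on 2.02 equivalent fragments, while its flank ratios were 0.983 and 1.13, so its promoter was low within a flank near WT. ZNF101, its neighbour, was low in the single knockout alone, with 1.24, 0.475 and 1.47 and a ratio of 0.382 (0.147 to 0.821). ZNF627 was low in the double knockout, with 2.54, 2.07 and 0.8001 and a ratio of 0.316 (0.185 to 0.506). ZNF227 had 1.48, 0.782 and 0.982, and ZNF730 had 0.480, 0.753 and 0.162. ZNF43 had 0.252, 0 and 0.382, and its single-knockout ratio had an upper limit of 1.112, so no difference was detectable at this depth.

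The most occupied promoter outside the segment, ZNF254, had 3.62, 4.05 and 1.91, with a double-knockout ratio of 0.526 (0.376 to 0.720). ZNF414 had 2.62, 3.85 and 1.84, ZNF846 had 2.21, 3.45 and 1.25, and ZNF180 had 2.47, 2.13 and 2.02. ZNF333 had 2.004, 2.62 and 1.25, ZNF546 had 1.65, 2.62 and 2.18, ZNF562 had 1.55, 2.30 and 1.59, and ZNF708 had 1.80, 2.11 and 1.42. In the single knockout the highest member was again ZNF254, followed by ZNF527 at 3.98 and ZNF414, and in the double knockout the order began with ZNF527 at 2.82, ZNF546 and ZNF180.

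Between the knockouts, whose antibody labels are the same, the double knockout was lower than the single knockout at 80 of 109 members. It was also lower at 5656 of all 9767 genes and at 82 of the 111 ZNF genes of other chromosomes, so the members were like other ZNF genes in this count. The median log2 ratio was -0.47 outside the segment and -0.76 inside it, beside -0.20 over all genes and -0.49 over ZNF genes of other chromosomes. Among genes above the filter it was -0.59 outside and -0.77 inside, beside -0.40 over all genes and -0.50 over the other ZNF genes. With each promoter divided by its own flank the medians were -0.18 outside and -0.28 inside, beside -0.16 over all genes, so the outside members were then close to all genes. Relative to the median of all genes above the filter, 12 of the 63 outside members were at least 1.5-fold higher and 17 lower, beside 20.8% and 17.7% of all genes. In the segment 2 of 21 were higher and 6 lower. Without centring, 2 were higher and 32 lower outside and 2 higher and 13 lower inside, beside 10.7% and 38.5% of all genes. The lowest ratios above the filter outside the segment were those of ZNF525 (1.21 in the single and 0.252 in the double knockout), ZNF730 (0.753 and 0.162) and ZNF14 (0.428 and 0.0880), and the highest were those of ZNF101 (0.475 and 1.47) and ZNF404 (0.382 and 1.08). The amount of spike-in chromatin per immunoprecipitation differed for the double knockout in the labels, and its part in the shift was not tested.

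Of 21 genes listed as the co-repressor machinery of KRAB zinc finger proteins, 2 had a listed TSS. ATRX, a chromatin remodeller, had promoter densities of 0.975 in WT, 0.810 in the single knockout and 0.577 in the double knockout. DNMT1, the maintenance DNA methyltransferase, which lies on chromosome 19, had 2.60, 2.08 and 1.49. Neither was past 1.5-fold in any of the 3 comparisons relative to the median, and the other 19 genes of the list were not analysed here.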

How the data were processed

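RNAPII ChIP-seq of RPE1 cells was read from 5 samples in 3 groups. The authors deposited coverage signal in 10-bp bins from 5 kb before to 5 kb after each TSS, which the file names call spike-in normalized. From the 3 WT samples they also deposited coverage signal in 200-bp bins within 100 kb of replication origins, with a normalization not given in the sources used here. The submitters' processing notes name R 4.0.5, STAR 2.7.7a and HOMER 4.8.2, and, for reads on hg38, SAMtools 1.11, BWA 0.7.17, Trim Galore 0.6.5 and FastQC 0.11.9. The nascent BrU-seq signal of WT is the authors' value in the deposited TSS table, with no error. A further 5 per-sample columns were left out.

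All deposited values were whole multiples of 1 step per library within 0.02 steps (0.0444, 0.181 and 0.110 in WT, single and double knockout). Fragments standing alone were on average 145, 275 and 277 bp long, from 190, 2484 and 1025 of them, which gave equivalent fragments. The relative depths and counting intervals depend on these lengths, and the WT length rests on the fewest fragments. Of 9944 listed TSSs, 9787 were in all 3 files. The pseudocount of log2 ratios was 10% of the median promoter density, which understates changes of low genes. Counts past 1.5-fold used genes above the density filter and were centred on their median. Clusters are members less than 1 Mb apart. Listed starts were compared with GENCODE 44, in which 106 of 109 members began within 1000 bp of a start of the same gene.

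Named genes were the 12 most occupied members outside the segment, the 4 highest and 4 lowest ratios to WT in each knockout, up to 14 above the filter inside, extremes of body density and of the promoter to body ratio (3 each), and the 8 in origin windows. Members, lists and rules were chosen with earlier results of these data known. Other members named were picked after their values were seen. The ratio steps were tested on simulated data. Python 3.11.15, NumPy 2.4.6 and pandas 2.3.3 were used. Alternatives covered the pseudocount, filter, window, TSS choice, scaling, fold and centring. Some marker genes are not reported here.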

Additional observations from a re-analysis of the deposited data

How the results depend on the processing

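Medians over members kept their direction under every alternative run except 1, dividing each promoter by its own flank, which turned the single-knockout median outside the segment from 0.13 to -0.0070. The same alternative moved the medians inside the segment to -0.22 in the single knockout and -0.46 in the double knockout, and the inside counts past 1.5-fold from 18 and 20, all lower, to 9 (3 higher and 6 lower) and 9 (all lower). Between the knockouts it moved the median from -0.47 to -0.18 outside the segment and from -0.76 to -0.28 inside it. Outside the segment, the single-knockout count of 28 became 18 in the wider promoter window, 7 at 2-fold, and 15 without the run ZNF175 to ZNF415 and the cluster ZNF146 to ZNF573, an alternative chosen after seeing the data. The double-knockout count of 22 became 38 without the filter and 12 at 2-fold. Between the knockouts, the outside count of 29 became 10 at 2-fold, and the inside count of 8 became 13 without the filter, 5 in the wider window, 5 at 2-fold and 15 without centring. Leaving out members under 80% unique, also chosen after seeing the data, changed no direction. For changed counts, the cause was not tested. Leaving out 1 WT replicate moved the median promoter to flank ratio in origin windows between 2.38 and 3.34 (2.86 with all). No paired analysis was possible because each genotype has 1 library around TSSs and the groups share only replicate number 1. The choice of TSS gave the same 109 starts. Depth limits single genes in both knockouts.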
